A study of Mus musculus with 12 samples.

Results

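Nr0b1, Zfx, Sox3, Tex11, Rhox5, Rhox6 and Rhox9 are 7 X-linked mouse genes with roles in pluripotency or in the germline. They were taken as a named list, and the data examined were the binding peaks of the transcription factors OCT4 and YY1 that overlap their gene bodies or lie within 20 kb of them in the mm10 RefSeq annotation. Of the 1217 X-linked peaks with allelic values (1006 for OCT4 and 211 for YY1), 8 met this rule, 7 of them OCT4 peaks and 1 a YY1 peak. The 7 genes held 15 of the 2139 OCT4 consensus peaks on the X chromosome, so 8 of their OCT4 peaks had no allelic values.

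The cells were iXist-ChrX-Cast, a female mouse embryonic stem cell line in which Xist sits behind a TetOn promoter on the Mus musculus castaneus X chromosome, the other X being of the Mus musculus domesticus (129S) strain. Xist, the long non-coding RNA that starts X inactivation, was switched on with 1 µg/ml doxycycline, so the castaneus chromosome becomes the inactive X (Xi) and the 129S chromosome stays active (Xa). Chromatin immunoprecipitation and sequencing (ChIP-seq) for OCT4 and for YY1 was done at day 0 (no doxycycline) and at day 6, with 2 libraries per factor and day. Both groups carried the transgene, were kept as stem cells with LIF and serum, and were a single line, so day 6 differs from day 0 in doxycycline and in time in culture, and these cannot be told apart.

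Of the 12 libraries, 8 have allelic values and 4 are inputs. The study's methods say that OCT4 and YY1 were precipitated from shared chromatin extracts. Whether replicates were separate cultures is not stated in the labels, so the p-values cover only the spread from sample to sample, which could be technical. The antibody label is blank for YY1 at day 0, where the factor was read from the sample title. The value of each peak is an allelic ratio, Xi/(Xi + Xa), a fraction that is 0.5 when the factor is found equally on both X chromosomes and approaches 0 when it is found on Xa alone. No fragment counts come with the ratios, so the depth behind each is unknown, and a ratio says nothing of total binding. A peak is said to have fallen or risen where limma's moderated test of day 6 against day 0, adjusted by the Benjamini-Hochberg method over all X-linked peaks of that factor, gave an adjusted p under 0.05. The stem cell label was checked by OCT4 peaks at 8 autosomal stem cell regulators (Pou5f1, Nanog, Sox2, Klf4, Esrrb, Tfcp2l1, Prdm14, Dppa3), all 8 of which held between 4 and 26 consensus peaks in or within 20 kb. That peak list pools the libraries, so it does not check the day 6 cells separately. Counts at other autosomal genes were not taken for comparison.

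X inactivation silences most genes of one X chromosome in female cells, and binding of transcription factors to that chromosome is lost along the way. OCT4, the product of Pou5f1, is a POU-domain factor at the centre of the pluripotency network, and it binds an octamer-like DNA element, often next to a SOX factor. YY1 is a zinc finger protein expressed in nearly all cell types that binds promoters. Among the X-linked genes, Nr0b1 (also called Dax1) encodes an orphan nuclear receptor that interacts with OCT4 and works in stem cell self-renewal, and Zfx encodes a zinc finger factor needed for self-renewal. Sox3 encodes a SOXB1 factor related to SOX2. Rhox5, Rhox6 and Rhox9 are reproductive homeobox genes of the X-linked Rhox cluster, and Tex11 encodes a protein of meiotic recombination in the male germline.

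The Xi share of OCT4 signal was lower at day 6 at Nr0b1 and at Rhox5, and no change passed the test at Tex11 or Sox3. Of the 7 OCT4 peaks with ratios, 4 fell (3 at Nr0b1 and 1 shared by Rhox5 and Rhox6), 0 rose and 3 did not pass. At an unadjusted p under 0.05 (limma), 5 of the 7 were lower at day 6, beside 504 of all 1006 X-linked OCT4 peaks. Over all 1006 X-linked OCT4 peaks 352 fell, or 35.0%, and 1 rose. On the logit scale 2 of the 7 passed, both at Nr0b1, beside 264 of the 1006 that fell on that scale. All 7 had a lower mean ratio at day 6, with a median change of -0.206 (from -0.387 to -0.0446), against a median of -0.149 over all X-linked OCT4 peaks. A lower mean was usual on the chromosome, where the upper quartile of the change was -0.0794. In 5 of the 7 both day 6 values lay below both day 0 values, which was so for 73.0% of all X-linked OCT4 peaks. The single YY1 peak, at Zfx, did not pass, with a change of -0.108 beside a median of -0.0987 over all 211 YY1 peaks. Of those 211 peaks, 42.2% fell. Without Nr0b1, 3 OCT4 peaks were left, of which 1 fell, with a median change of -0.0994. Without OCT4 day 0 replicate 1 or day 0 replicate 2, 0 of the 7 passed (1 and 0 of all 1006), and without day 6 replicate 2, 2 of the 7 passed.

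**Figure D1:**
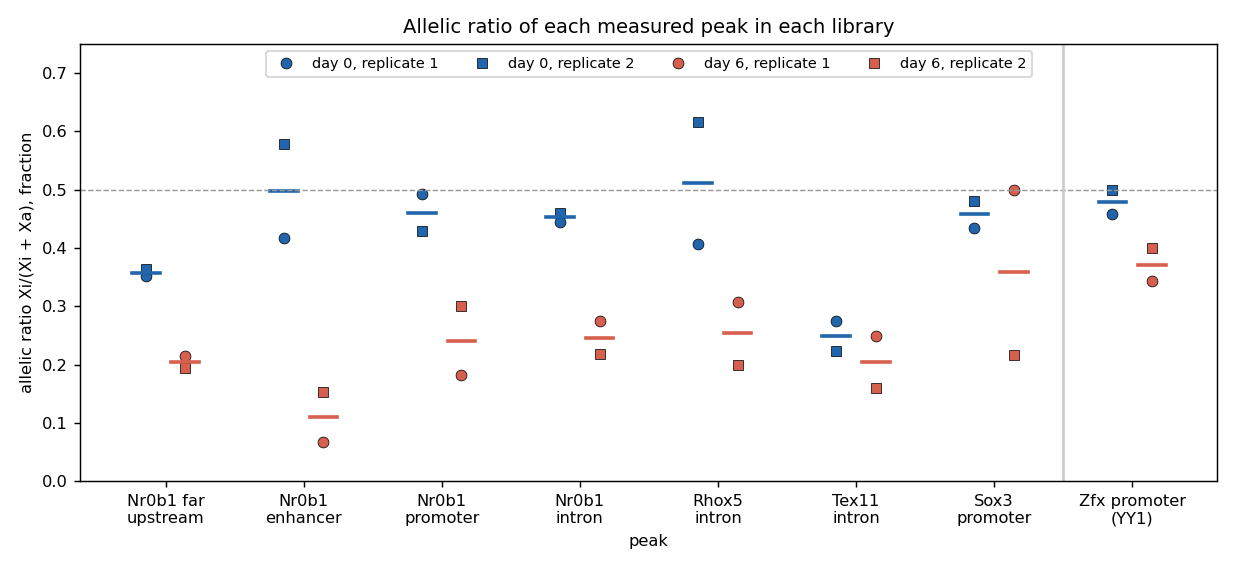
Allelic ratio Xi/(Xi + Xa) of the 8 measured peaks in each library (y axis, fraction; circles replicate 1, squares replicate 2; bars are the mean of 2 libraries; blue day 0, red day 6; the dashed line is 0.5). The day 6 points lie below the day 0 points at Nr0b1, Rhox5 and Zfx, and overlap them at Tex11 and Sox3.

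Nr0b1 had the most data of the 7 genes. It lies on the plus strand at chrX:86191775-86195947, 17.3 Mb from Xist, and all 4 of its OCT4 consensus peaks had ratios, one far upstream, one at an annotated enhancer, one at the promoter and one in the intron. Averaged over the 4 peaks, the ratio was 0.426 and 0.458 without doxycycline and 0.184 and 0.217 after 6 days of it, so 0.442 ± 0.0221 became 0.200 ± 0.0228 (SD, n = 2 libraries) and 45.3% of the day 0 ratio was left. The day 0 and day 6 libraries did not overlap at any of the 4 peaks, and 3 of the 4 fell. Over all X-linked OCT4 peaks, both day 6 values lay below both day 0 values in 73.0%, and 35.0% fell.

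The peak with the lowest ratio at day 6 was the upstream one at chrX:86187212-86187725 (514 bp), which ends 4050 bp before the gene and is intergenic. Its ratios were 0.417 and 0.578 at day 0 and 0.0667 and 0.154 at day 6. All of the day 6 values were far below the day 0 values, although the day 0 replicates themselves differed by more than the day 6 replicates did. The ratio fell by 0.387 ± 0.0715 (limma SE; 95% interval -0.555 to -0.219; adjusted p = 0.0163, limma), leaving 22.2% of its day 0 value. Ordered by change, it was number 17 from the deepest of the 1006 OCT4 peaks, and by its day 6 mean number 19 from the lowest. RefSeq annotates an enhancer that shares 436 bp with the peak.

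CAAGGTCA, the letters that NR5A and ESRRB nuclear receptors are known to recognise, was added to the search after the annotated elements had been seen. It was found on either strand in 6.64% of the 2139 OCT4 consensus peaks on the X and in 2 of the 15 at these genes. The enhancer peak held no match to the octamer, searched as ATGCAAAT or ATGCTAAT on both strands.

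The promoter peak at chrX:86191462-86192590 (1129 bp) spans the Nr0b1 start site, its 5′ UTR and coding exon sequence. Its ratios were 0.493 and 0.429 at day 0 and 0.182 and 0.3 at day 6. Taken by replicate number, which was not shown to pair the libraries, the change was -0.311 for replicate 1 and -0.129 for replicate 2. The ratio fell by 0.220 ± 0.0635 (95% interval -0.369 to -0.0703; adjusted p = 0.0370, limma), to 52.3% of its day 0 value. On the logit scale it did not pass (adjusted p = 0.0545, limma). RefSeq annotates binding sites in this peak for STAT3, which carries the LIF signal, for LEF1, a partner of beta-catenin in Wnt signalling, for the nuclear receptors COUP-TF, NR5A2 (LRH-1) and NR5A1 (SF1), and for WT1.

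The intron peak at chrX:86193363-86194095 (733 bp) started from 0.444 and 0.460 and reached 0.274 and 0.218 by day 6. The replicates were close at each day. The ratio fell by 0.206 ± 0.0550 (95% interval -0.335 to -0.0769; adjusted p = 0.0295, limma), to 54.5% of its day 0 value. This is the peak in which RefSeq annotates a binding site for OCT4 itself (POU5F1), and that site is shown with capitals on the 8 bases closest to the octamer.

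Nr0b1 intronic OCT4 site, chrX:86193816-86193856, mm10, plus strand: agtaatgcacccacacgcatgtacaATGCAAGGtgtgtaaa

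The 8 bases differ from the octamer ATGCAAAT at 2 positions, A7G and T8G, counted from 1 at the octamer's 5′ end with the octamer's base first.

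The far upstream peak at chrX:86180948-86181645 (698 bp), which ends 10130 bp before the gene, was already below 0.5 without Xist. Its ratios were 0.352 and 0.364 at day 0 and 0.214 and 0.194 at day 6. The replicates were close and the days did not overlap, yet the change of -0.154 ± 0.0532 (95% interval -0.279 to -0.0289) did not pass after adjustment (adjusted p = 0.0575, limma). The peak held 57.0% of its day 0 ratio, and its day 6 mean of 0.204 was lower than those of the promoter (0.241) and intron (0.246) peaks that fell.

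The 3 Nr0b1 calls rest on both day 0 libraries. With day 0 replicate 1 left out, the adjusted p of the enhancer, promoter and intron peaks was 0.0540, 0.155 and 0.109, and with day 0 replicate 2 left out it was 0.0607, 0.0936 and 0.137 (limma). Without day 6 replicate 1 the promoter peak alone lost its call (adjusted p = 0.108, limma), and without day 6 replicate 2 the intron peak alone lost it (adjusted p = 0.0763, limma). The change stayed negative at all 4 Nr0b1 peaks whichever library was left out.

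**Figure D2:**
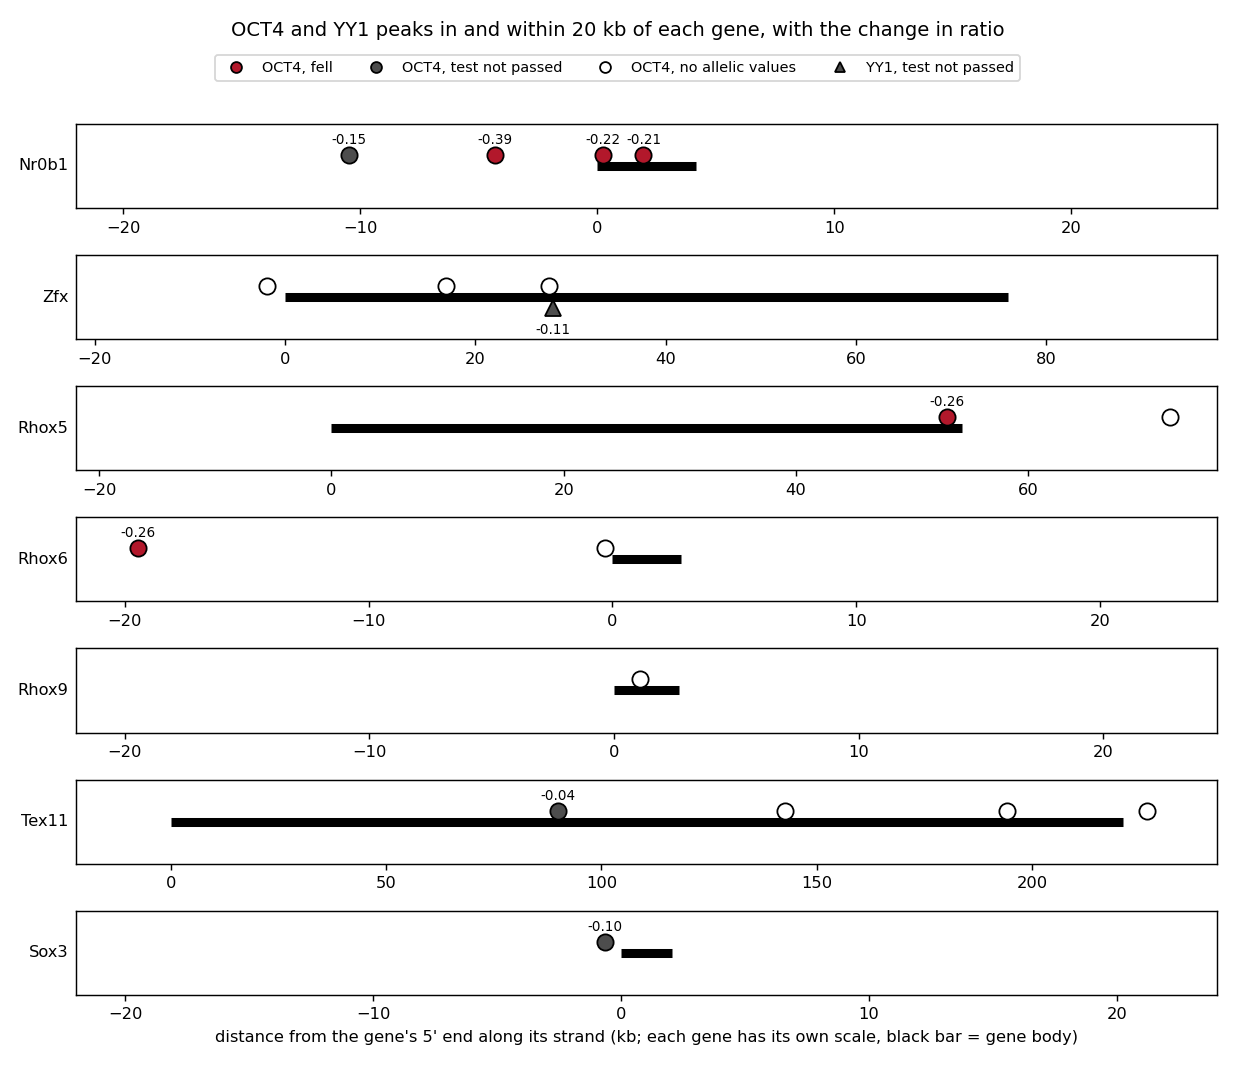
Position of each OCT4 peak (circles) and YY1 peak (triangle) against distance from the gene's 5′ end along its strand (x axis, kb, a separate scale for each gene; black bar, gene body). Numbers are the change in ratio, day 6 minus day 0, filled symbols have allelic values and open symbols have none; Nr0b1 has 4 of 4 filled, Zfx 0 of 3 OCT4 symbols and Rhox9 0 of 1.

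In the Rhox cluster the Xi share of OCT4 signal was lower at day 6 at the one measured peak of the 3 genes. Rhox5 (chrX:37754608-37808878, plus strand) and Rhox6 (chrX:37827055-37829857, plus strand) share that peak, chrX:37807393-37807830 (438 bp), which lies in a Rhox5 intron and 19225 bp before Rhox6. It is 65.7 Mb from Xist. The ratios were 0.406 and 0.615 at day 0 and 0.308 and 0.2 at day 6. Both day 6 values were below both day 0 values, though the day 0 replicates spanned 0.5 and the change was -0.0986 in the replicate 1 libraries and -0.415 in the replicate 2 libraries. The ratio fell by 0.257 ± 0.0813 (95% interval -0.448 to -0.0658; adjusted p = 0.0456, limma), to 49.7% of its day 0 value. The call was lost without day 0 replicate 1 (adjusted p = 0.0578), day 0 replicate 2 (0.228) or day 6 replicate 2 (0.110), and on the logit scale (0.0630, limma).

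Rhox6 also had an OCT4 consensus peak at its own promoter, chrX:37826634-37826902 (269 bp), centred 0.287 kb before the gene and again within 20 kb of Rhox5, with no ratios. It is one of 2 consensus peaks at the 7 genes with an octamer, shown in capitals with its flanks.

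Rhox6 promoter peak octamer, chrX:37826642-37826666, mm10, minus strand: attaaattATGCAAATtgccttcaa

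Rhox9 (chrX:37899097-37901770, minus strand) had 1 OCT4 consensus peak, chrX:37900572-37900853 (282 bp) in its intron, with no ratios, so neither day 0 nor day 6 can be described for Rhox9. The nearest measured peak is that of Rhox5, 91.3 kb away. None of the 3 Rhox genes had a YY1 peak with ratios within 20 kb.

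Tex11 had the lowest OCT4 ratio at day 0 among the measured peaks of the 7 genes. It lies on the minus strand at chrX:100838648-101059639, and its measured intronic OCT4 peak, chrX:100969529-100969892 (364 bp), is 2.51 Mb from Xist, the nearest of the 8. The ratios were 0.275 and 0.224 at day 0 and 0.25 and 0.16 at day 6. The days overlapped, and both day 0 values were well under 0.5 and under every other day 0 value at the 7 genes. Its day 0 mean of 0.250 ± 0.0360 (SD, n = 2) was number 18 from the lowest of the 1006 OCT4 peaks, whose median was 0.497. The change of -0.0446 ± 0.0594 (95% interval -0.184 to 0.0950; adjusted p = 0.556, limma) was smaller than its error, and 82.1% of the day 0 ratio was left. Without day 6 replicate 2 the change was 0.000431, which turns its sign. The peak holds the other octamer of the 7 genes, in capitals.

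Tex11 intron peak octamer, chrX:100969803-100969827, mm10, plus strand: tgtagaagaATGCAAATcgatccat

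A further 3 consensus peaks at Tex11 had no ratios. They are chrX:100865152-100865734 and chrX:100916801-100917042 in introns and chrX:100832815-100833085, 5563 bp past the gene's 3′ end.

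Sox3 gave 2 day 6 libraries that lay on opposite sides of the day 0 values. The gene lies on the minus strand at chrX:60891366-60893430, 42.6 Mb from Xist, and its 1 OCT4 peak, chrX:60893930-60894212 (283 bp), is in the promoter region, 500 bp before the gene and also within the overlapping gene Gm38438. The ratios were 0.435 and 0.481 at day 0 and 0.5 and 0.217 at day 6. One day 6 library was thus above both day 0 libraries and the other below them. The change was 0.0652 between the replicate 1 libraries and -0.264 between the replicate 2 libraries, or -0.0994 ± 0.0920 over both (95% interval -0.316 to 0.117; adjusted p = 0.397, limma). Without day 6 replicate 1 the peak passed (change -0.241, adjusted p = 0.0348, limma), and without day 6 replicate 2 the change turned positive (0.0419, adjusted p = 0.651, limma), so its direction rests on 1 library.

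Zfx was measured through YY1 only. It lies on the minus strand at chrX:94074631-94150645, 9.36 Mb from Xist, and its YY1 peak, chrX:94122094-94122808 (715 bp), covers a promoter, 5′ UTR and intron of the gene 28.2 kb inside its annotated span. The ratios were 0.458 and 0.5 at day 0 and 0.343 and 0.4 at day 6. The days did not overlap, as in 72.0% of all YY1 peaks. Taken by replicate number, which was not shown to pair the libraries, the change was -0.115 and -0.100. The change of -0.108 ± 0.0372 (95% interval -0.200 to -0.0158) did not pass after adjustment over the 211 YY1 peaks (adjusted p = 0.0626, unadjusted p = 0.0288, limma). The peak held 77.5% of its day 0 ratio, beside a median of 78.2% over all YY1 peaks, and its change was number 99 of 211 from the deepest. The YY1 core, searched as AANATGGC on both strands, was found 2 times in it and in 76.8% of all X-linked YY1 peaks, and both matches are shown because they lie in the segment where the OCT4 and YY1 peaks overlap.

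Zfx YY1 core 1, chrX:94122574-94122598, mm10, plus strand: gccgccttcAAAATGGCggctcccc
Zfx YY1 core 2, chrX:94122638-94122662, mm10, minus strand: cgggggacAAGATGGCggccggccg

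OCT4 had 3 consensus peaks at Zfx, none with ratios. The widest, chrX:94122111-94123611 (1501 bp), overlaps the YY1 peak by 698 bp at the same promoter, so at this promoter YY1 has an allelic value and OCT4 has none. The others are an intronic peak at chrX:94133558-94133946, which holds a match to CAAGGTCA, and an intergenic peak at chrX:94152288-94152763, 1643 bp before the gene.

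Set side by side as gene means, the OCT4 ratios at day 0 ran from Tex11 (0.250 ± 0.0360) through Nr0b1 (0.442 ± 0.0221) and Sox3 (0.458 ± 0.0330) to Rhox5 and Rhox6 (0.511 ± 0.148; SD, n = 2 libraries each). Nr0b1, Sox3 and Rhox5 overlapped one another in their library values, and Tex11 lay below them. At day 6 the order was Nr0b1 (0.200 ± 0.0228), Tex11 (0.205 ± 0.0636), Rhox5 and Rhox6 (0.254 ± 0.0762) and Sox3 (0.359 ± 0.200), and each gene overlapped its neighbours in that order. Nr0b1 and Tex11 thus had similar mean ratios at day 6 from different ratios at day 0.

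**Figure D3:**
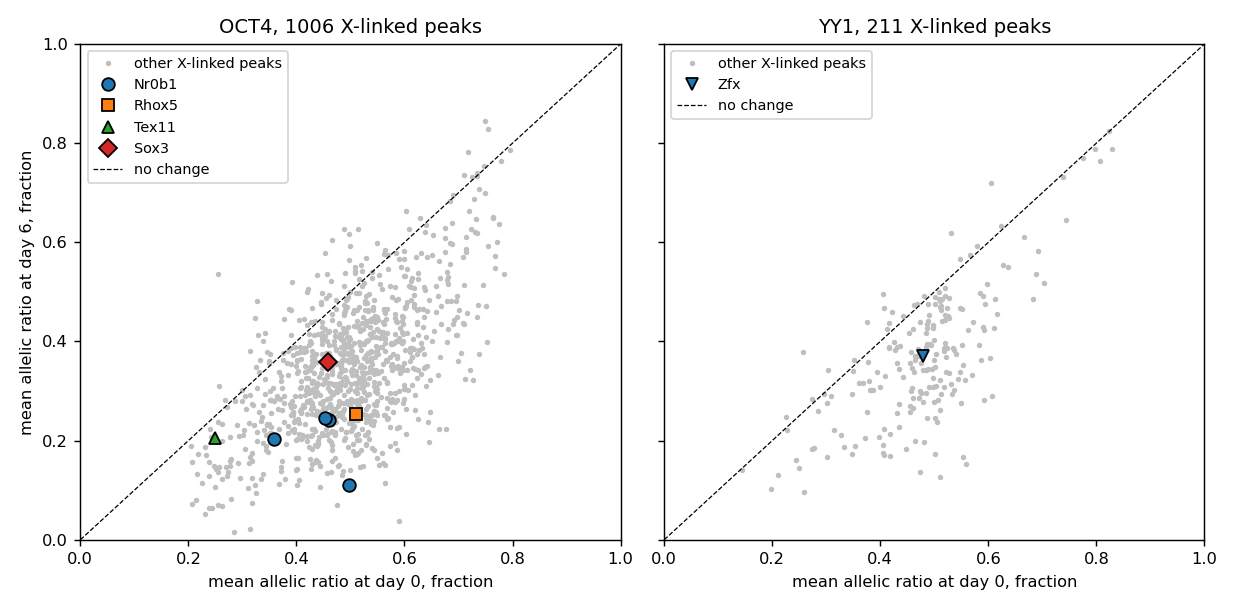
Mean allelic ratio at day 6 (y axis, fraction) against day 0 (x axis, fraction) for each X-linked OCT4 peak (left, 1006) and YY1 peak (right, 211), each point the mean of 2 libraries, with the measured peaks of the 7 genes coloured and a dashed line for no change. The Nr0b1 enhancer peak sits near the lower edge at a day 6 mean of 0.110, while Tex11 sits at the left edge and Zfx amid the YY1 peaks.

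The share of peaks with ratios was near that of the chromosome, 46.7% (7 of 15) at these genes and 47.0% (1006 of 2139) on the X. At the 7 genes the peaks with ratios had a median width of 514 bp and those without 335.5 bp, and the medians on the whole X were 491.5 and 348 bp. The octamer occurred in 2 of the 15 consensus peaks and in 17.9% of the 2139, and a joined SOX and octamer element (TTGT, any base, then ATGCNAAT) in 0 of the 15 and in 1.17% of the 2139. The YY1 core, in 3 of the 15, was in 11.6% of the 2139. None of the regions called in the input libraries lay within 20 kb of any of the 7 genes.

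By the smallest root mean square difference in OCT4 ratio over the 4 OCT4 libraries, among 424 other X-linked protein-coding genes, Eda (0.0279) and Tsx (0.0282) were among the 3 most like Nr0b1. For Rhox5 and Rhox6 the 3 were Jade3 (0.0317), Ctps2 (0.0376) and Arhgap6 (0.0424). For Tex11 they were Gm2854 (0.0181), Fmr1nb (0.0466) and Frmpd3 (0.0587), and for Sox3 Gpr143 (0.0324), Ssxa1 (0.0449) and Glra4 (0.0461).

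Other X-linked genes of the same kind were read from lists of related genes. Besides Nr0b1, Sox3 and Zfx, 6 genes listed for pluripotency and its exit are reported (Tfe3, Dusp9, Klf8, Bcor, Elk1, Pou3f4). Of these, 4 had OCT4 peaks with ratios. Of their 22 peaks 6 fell and 0 rose, with a median change of -0.150, again beside 35.0% of all X-linked OCT4 peaks that fell. The ratio fell at the 1 peak of Dusp9, a phosphatase that damps ERK signalling (-0.275), at 2 of 6 at Klf8, a Krüppel-like factor, at 1 of 2 at Tfe3, a basic helix-loop-helix factor that acts against exit from pluripotency, and at 2 of 13 at Bcor, a subunit of a Polycomb complex. Bcor alone supplied 13 of the 22 peaks. These list calls come from the same fit, in which 1 and 0 X-linked OCT4 peaks passed without day 0 replicate 1 and without day 0 replicate 2.

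The remaining Rhox list (9 genes) had measured OCT4 peaks near Rhox1 only, where 2 of 2 fell (-0.255 and -0.197), beside 35.0% of all X-linked OCT4 peaks. These Rhox1 peaks are intergenic, 13349 and 14863 bp outside the gene. Of the 20 germline genes besides Tex11, 14 had no OCT4 consensus peak within 20 kb and 3 had ratios. Their 4 OCT4 peaks had a median change of -0.169, and 2 fell, again beside 35.0% of all X-linked OCT4 peaks. Both lie in or near Nxf3, an RNA export factor gene, one in its intron (-0.203) and the other (-0.229) 2985 bp outside it, at the promoter of the neighbouring gene Bex2. The measured peaks of Mageb16 and Fmr1nb are intergenic. Mageb16 (-0.112) and Fmr1nb (-0.136) did not pass, so Tex11 had the smallest change of the germline genes with a measured OCT4 peak. Day 0 means were 0.292 at Fmr1nb, 0.325 at the Bex2 promoter peak, 0.346 at Mageb16 and 0.566 at the Nxf3 intron peak. The median over all X-linked OCT4 peaks was 0.497, so a low day 0 ratio was not particular to Tex11.

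**Figure D4:**
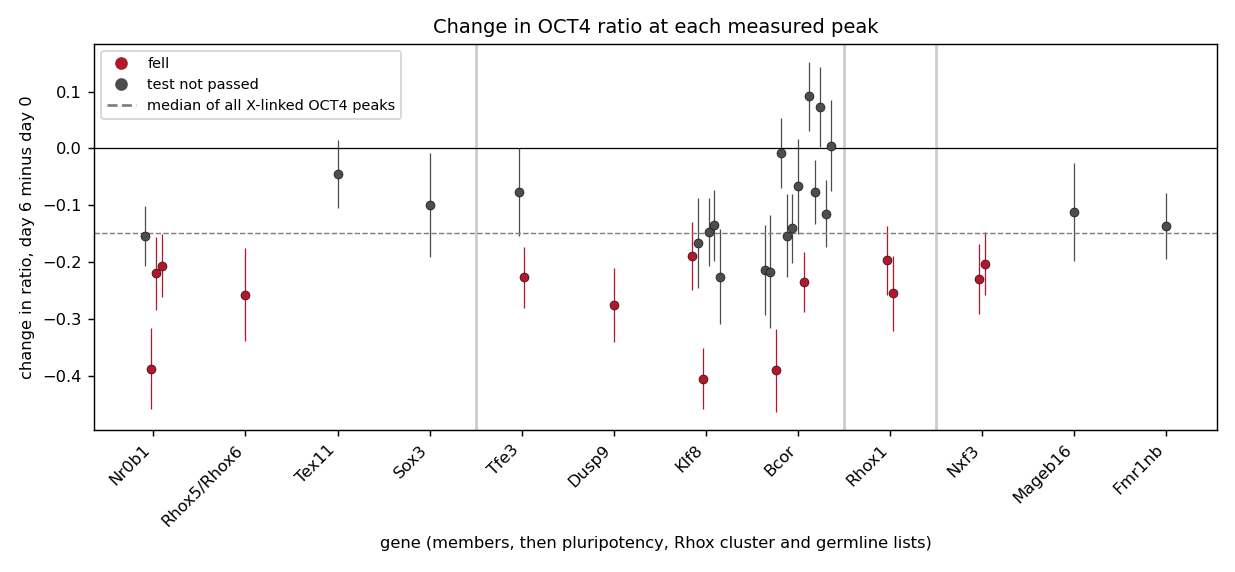
Change in OCT4 ratio, day 6 minus day 0 (y axis), at each measured peak of the 7 genes and of the pluripotency, Rhox cluster and germline lists (x axis); error bars are the limma SE, red points fell, grey points did not pass, and the dashed line is the median of all X-linked OCT4 peaks, -0.149. The peaks of Tex11, Sox3, Mageb16 and Fmr1nb lie above that line, and those of Rhox5, Dusp9, Rhox1 and Nxf3 below it.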

How the data were processed

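Per the study's methods, the authors mapped reads with Bowtie2 (2.3.5.1) to mm10 masked at strain variants, split them by allele, called peaks per library with MACS2, kept regions seen in 2 or more, and removed input regions. The deposited allelic ratios are fractions, Xi/(Xi + Xa), for X-linked peaks that passed their filters on allele-assigned fragments and on biallelic signal at day 0. The deposited peak lists give positions only. No fragment counts were used here, so the depth behind each ratio is unknown. Column names of the OCT4 table carry a clone name that the labels do not. The 7 genes and the gene lists were chosen with earlier results of these data known. Peaks were assigned with the RefSeq annotation of GRCm38 (mm10), from which sequences come. Ratios were fitted untransformed with limma 3.58.1 (R 4.3.3, lmFit and eBayes, two-sided), day 6 against day 0, for each factor over all of its X-linked peaks. The fit was tested on simulated ratios. Alternatives were a replicate block, a logit scale, a day 0 filter, a robust prior, a 0.01 threshold, other windows and each library left out. Named genes are the 7, the lists, and for each gene with OCT4 ratios the 3 closest in ratio, of which some items are not reported here. The motif CAAGGTCA was added after seeing the data.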

Additional observations from a re-analysis of the deposited data

How the results depend on the processing

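Of the 4 OCT4 peaks of the 7 genes that fell, 2 passed with a replicate block, 2 on the logit scale and 0 at an adjusted p under 0.01 (limma), while a window of 50 kb gave 8 of 13. With a library left out the count ranged from 0 to 4. Over the X chromosome the 352 OCT4 calls became 0 at the 0.01 threshold and 0 to 288 with a library left out, and the 89 YY1 calls became 16 and 0 to 51. Without OCT4 day 0 replicate 1 or 2 the X-linked OCT4 calls numbered 1 and 0, so losses of single calls in those fits came with the loss of nearly all calls on the chromosome, and the fit then assumes that the lone sample varies like the other day. The replicate numbers were not shown to pair the libraries (correlation of replicate deviations -0.0217 for OCT4 and 0.0315 for YY1). Under the block 274 OCT4 and 97 YY1 peaks fell on the X, the Nr0b1 promoter (adjusted p = 0.0554) and Rhox5 (adjusted p = 0.0630) no longer passed, and Zfx stayed short of the threshold (adjusted p = 0.0521, limma). On the logit scale 264 OCT4 and 80 YY1 peaks fell on the X, and the same 2 peaks did not pass. The median change over the OCT4 peaks ran from -0.234 to -0.152 with a library left out, and the Zfx YY1 change from -0.136 to -0.0792. With a library left out the change ran from -0.0896 to 0.000431 at Tex11 and from -0.241 to 0.0419 at Sox3, the sign turning without OCT4 day 6 replicate 2. With a robust and trended prior the far upstream Nr0b1 peak passed (adjusted p = 0.0480, limma). The robust prior called 5 of 7 OCT4 peaks at the 7 genes and 351 of 1006 on the X. The day 0 filter left 6 peaks at these genes, of which 4 were called, and 913 on the X, of which 327 were called. In the main fit, gene bodies alone gave 3 of 4 and a 5 kb window 4 of 6. With no fragment counts, noise from depth cannot be separated from noise between libraries.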

Other observations

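YY1 was measured at few of the germline genes. At the germline list YY1 ratios fell at 3 of 3 measured peaks, at Usp26 (-0.284), Nxf3 (-0.188) and Fmr1nb (-0.161). The Usp26 and Fmr1nb peaks are at those genes' promoters, while the one counted for Nxf3 lies 3945 bp outside it, in an intron of Bex2. The ratio also fell at 1 of 1 in the Rhox list, a peak shared by Rhox12 and Rhox13 (-0.198), beside 42.2% of all 211 YY1 peaks. Over all 211, the calls numbered 17 and 0 without YY1 day 0 replicate 1 and 2, and 38 and 51 without day 6 replicate 1 and 2. Of the 3 YY1 peaks at Zfx and Bcor, of the pluripotency list, 0 passed the same limma test. At an unadjusted p under 0.05 (limma), 1 of the 3 was lower at day 6, beside 117 of all 211 YY1 peaks. At Fmr1nb, a cancer and testis antigen gene, the YY1 ratio was already low at day 0 (mean 0.258) and reached 0.0971 at day 6.

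Just past the 20 kb limit, the OCT4 ratio fell at the nearest measured peak of Sox3 and of Zfx. The nearest OCT4 peak outside the Sox3 window, chrX:60868510-60868843, 22.5 kb from the gene, went from 0.621 and 0.578 to 0.346 and 0.28 and fell by 0.286 (adjusted p = 0.0176, limma), while the Sox3 promoter peak did not pass. The nearest one to Zfx, chrX:94177663-94178020, 27.0 kb away, went from 0.692 and 0.7 to 0.348 and 0.478 and fell by 0.283 (adjusted p = 0.0224, limma). The nearest one to Tex11, chrX:101083841-101085773, 24.2 kb away, started from 0.455 and 0.542 and changed by -0.137 (adjusted p = 0.0992, limma). The differences between inside and outside peaks were not tested, and without either day 0 OCT4 library nearly all X-linked OCT4 calls were lost (1 and 0 left).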
